A study of Mus musculus with 12 samples.

Results

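Malonic acid (MA) and methylsuccinic acid (MetSA) were set against each other in mouse bone marrow-derived macrophages, phagocytes grown in culture from marrow precursors. The comparison took the 3 libraries labelled MA and the 3 labelled MetSA, 6 of the 12 libraries of the series, and all 14113 genes that could be tested of the 32285 in the count table. In both groups the cells were wild type and had been given the acid at 5 mM, diluted from a 50 mM stock in RPMI, 16 h before collection. Cells of the same genotype in medium alone (M, 3 libraries) served as a common baseline, and 3 libraries of cells given itaconic acid entered the fit but no comparison. Strain, sex and age of the mice, and whether the acids were brought to neutral pH, are not stated in any source used here. Nor do these say if the 3 biological replicates of a group are separate animals, so the p-values measure the spread between these cultures, which may be technical.

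Malonic acid is a short dicarboxylic acid known as a competitive inhibitor of succinate dehydrogenase, the enzyme that the TCA cycle shares with the respiratory chain. Methylsuccinic acid is succinic acid with a methyl branch, so that its chain is longer than that of malonic acid and carries a side group that malonic acid lacks. Only 1 pair of compounds was compared here, at matched dose and time.

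Macrophages answer nucleic acids and bacterial products through sensors that switch on type I interferon genes. Secreted interferon binds its receptor, JAK kinases phosphorylate STAT proteins, and these join IRF9 in a complex that binds the interferon-stimulated response element (ISRE) in the promoters of antiviral genes. A second pathway that bears on the results below is that of TGF-beta, whose receptor kinases act through SMAD proteins and which is held back by its own target genes, Smad7, Ski, Skil and Pmepa1 among them.

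Interferon-stimulated genes were lower with MA than with MetSA: 33 of 33 tested type I interferon effectors and 16 of 16 interferon-inducible GTPases passed the test, all lower. Over all genes tested 26.4% passed, 11.6% higher and 14.7% lower, and the list counts in this paragraph stand beside these shares. Antigen presentation genes of MHC class I, the interferon-inducible chemokine Cxcl10, the cytokine Il10 and the Fc receptor Fcgr1 were lower as well. Against medium alone the median log2 fold change of the effectors was -0.44 with MA and 1.87 with MetSA. For MHC class I it was -0.13 with MA and 1.04 with MetSA. In the other direction, Pmepa1, Smad7 and Tgfbr1 of the TGF-beta pathway and the adenosine-producing enzyme Nt5e were higher with MA. Of the TGF-beta list 12 of 26 tested members were higher and 6 lower, and of the adhesion and caveolae list 11 of 20 were higher and 2 lower. Of 28 TCA cycle transcripts 25 had a 95% interval within 0.5 of no difference on the log2 scale, the 4 subunits of succinate dehydrogenase among them. Such an interval was found for 50.8% of all genes tested. In bulk libraries like these, fewer cells of a kind and less RNA per cell cannot be told apart.

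The 6 libraries held 50083082 to 52421284 counts each, and the median 95% interval of a gene reached 0.23 on the log2 scale to either side. Macrophage markers were abundant in both groups (20 of 20 tested, summing from 41654 to 44182 CPM with MA, against 41295 to 46915 CPM with MetSA and 34647 to 37582 CPM in M), as the label of the cells requires. MetSA replicate 3 stood apart from the other 2 MetSA libraries. It lay at 15.3 on the first principal component of log2 CPM, against 30.1 and 25.8. Its mitochondrially encoded genes took 1.28% of the counts, against 0.759% and 0.833%. Its counts differed from theirs by 59.7 and 48.0 on a chi-square per degree of freedom, against 13.9 between them. It is kept in the values below, and list counts without it are given beside them. In lists where none is given, the number called in either direction moved by at most 1 without it.

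With an adjusted p under 0.05 in edgeR's quasi-likelihood test, 3720 genes were called, 26.4% of those tested. Of these, 1640 (11.6% of those tested) were higher with MA and 2080 (14.7%) lower. Every count of called list members below is to be read beside these shares. The split depends on the scaling: under upper-quartile scaling (median log2 fold change of all genes 0.06, against 0.01 in the scaling used here) 2112 genes were higher and 1766 lower. Called genes with at least a 2-fold difference numbered 887 (6.28%), 318 higher (2.25%) and 569 lower (4.03%). Without MetSA replicate 3 the test called 3805 genes, 1705 higher and 2100 lower, and 929 with at least a 2-fold difference. At the other end, 7165 genes (50.8%) had a 95% interval wholly within 0.5 of 0 on the log2 scale. All log2 fold changes below are MA over MetSA unless another pair is named, with their standard errors after ±, and a single number in parentheses behind a gene is its log2 fold change. Levels are CPM, read counts scaled by the TMM-normalised size of the library, given for replicates 1, 2 and 3 in turn.

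**Figure D1:**
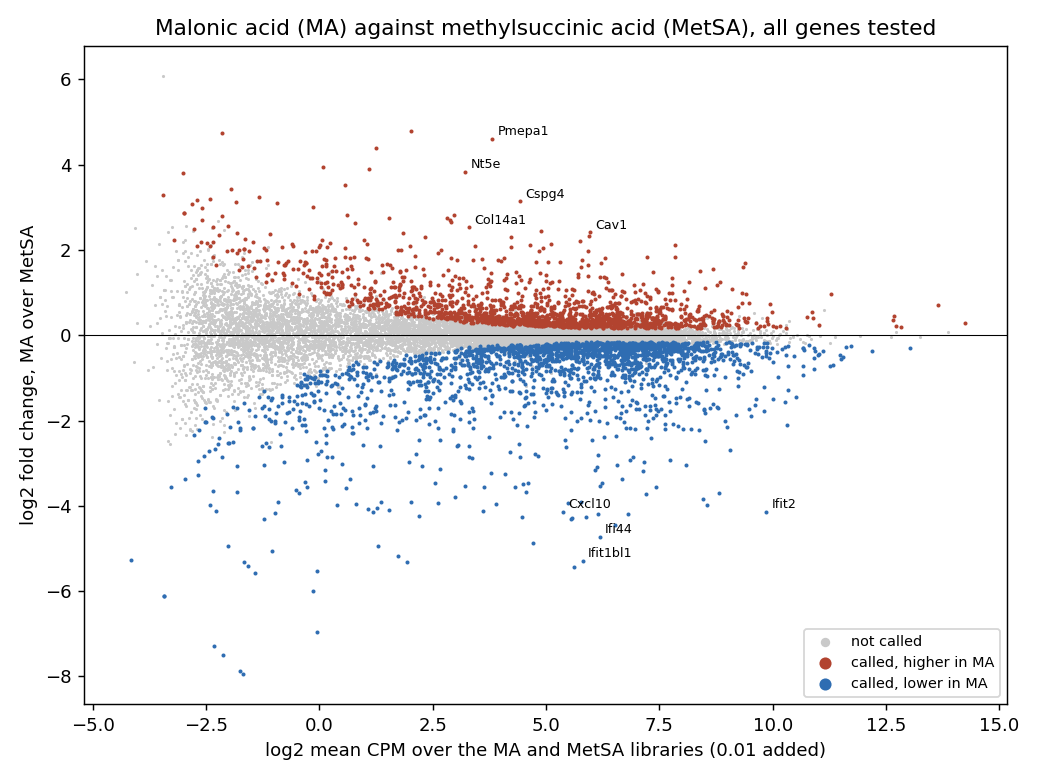
Each point is 1 of the 14113 genes tested, with its mean level over the MA and MetSA libraries on the x axis (log2 CPM) and its log2 fold change, MA over MetSA, on the y axis. Red points were called higher with MA (1640 genes), blue points lower (2080 genes), grey points were not called. The labelled points are some of the genes named in the text, and the falls reach further from 0 than the rises.

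With a floor of 10 CPM in the higher group, 7 of the 12 largest falls belonged to the interferon, GTPase and chemokine lists. The rule that chose them required groups that do not overlap, as in 38.8% of all genes tested. Iigp1, an immunity-related GTPase that acts on the vacuoles of intracellular parasites (ENSMUSG00000054072, chr18:60376027-60392634, plus strand on GRCm38), had 1.34, 1.88 and 3.48 CPM with MA, against 123, 104 and 62.4 CPM with MetSA and 5.34, 7.37 and 7.51 CPM in M. Its -5.44 on the log2 scale (SE 0.38, adjusted p = 5.15e-06) is a 43.3-fold higher level with MetSA, and the MA libraries lay below those in medium alone as well. Ifit2, which binds viral RNA and slows its translation, had 77.7, 105 and 114 CPM with MA, against 2168, 1789 and 1299 CPM with MetSA and 139, 165 and 197 CPM in M (log2 -4.15 ± 0.24, adjusted p = 1.21e-06). MetSA replicate 3 was the lowest of the MetSA libraries for both genes and still lay far above every MA library. Slfn1, a Schlafen family gene, had 1.04, 1.98 and 2.17 CPM with MA, against 67.3, 54.7 and 29.4 CPM with MetSA (log2 -4.87 ± 0.41, adjusted p = 1.93e-05). Ms4a4c, a membrane-spanning gene in no list, had 7.73, 13.9 and 13.5 CPM with MA, against 282, 231 and 129.7 CPM with MetSA (log2 -4.19 ± 0.38, adjusted p = 3.35e-05). The other 8 of the 12 were Ifit1bl1, Ifi44, Ifit3b, Tgtp2, Trim30c, Ifi213, Ifi206 and Cxcl10, with log2 fold changes from -5.29 (Ifit1bl1) to -4.14 (Cxcl10). Tgtp2 shares 76.8% of its transcript with other genes, Ifit3b 27.4% and Ifi206 13.1%, in stretches of 100 bases, so the counts of these 3 are uncertain between family members.

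All 33 tested type I interferon effectors were called lower, with a median log2 fold change of -2.16 where the median of all genes tested was 0.01. Their levels summed from 4049 to 4495 CPM with MA, against 14496 to 20778 CPM with MetSA and 4979 to 5638 CPM in M. Rsad2, also called viperin, which makes a chain-terminating nucleotide, had 37.5, 46.01 and 55.5 CPM with MA, against 792, 668 and 529 CPM with MetSA (log2 -3.84 ± 0.24, adjusted p = 2.08e-06). Isg15, a ubiquitin-like protein that is attached to other proteins in infected cells, had 9.65, 12.7 and 12.1 CPM with MA, against 181, 139.7 and 81.6 CPM with MetSA (log2 -3.54 ± 0.31, adjusted p = 2.99e-05). The smallest differences in the list were still more than 2-fold: Lgals3bp (-1.28) and Eif2ak2 (-1.26), the RNA-activated kinase that halts translation. The members with the smallest adjusted p were Trim30a (-1.71), Oas1a (-1.64), which shares 40.9% of its transcript with other genes, Dtx3l (-1.56) and Herc6 (-2.19). Without MetSA replicate 3 all 33 were again called lower, with a median of -2.29.

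Guanylate-binding proteins and immunity-related GTPases, which gather on and break open the compartments of intracellular pathogens, gave the lowest median of the lists: -3.04 over 16 of 16 members called lower (-3.11 without MetSA replicate 3). Irgm1, a regulator of the family, had 81.6, 84.97 and 90.3 CPM with MA, against 389, 356 and 342 CPM with MetSA and 89.99, 105 and 112 CPM in M (log2 -2.08 ± 0.08, adjusted p = 4.82e-13). The spread within each group was small, and the highest MA library lay far below the lowest MetSA library. Irgm2 followed closely, with 49.3, 56.1 and 57.5 CPM with MA, against 264, 242 and 226 CPM with MetSA (log2 -2.17 ± 0.08, adjusted p = 7.38e-13). Gbp2 had 10.98, 13.4 and 13.6 CPM with MA, against 162, 147 and 108 CPM with MetSA (log2 -3.46 ± 0.24, adjusted p = 3.4e-06). Gbp7 had 10.5, 14.7 and 15.3 CPM with MA, against 134, 129 and 101 CPM with MetSA (log2 -3.17 ± 0.17, adjusted p = 9.41e-08).

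**Figure D2:**
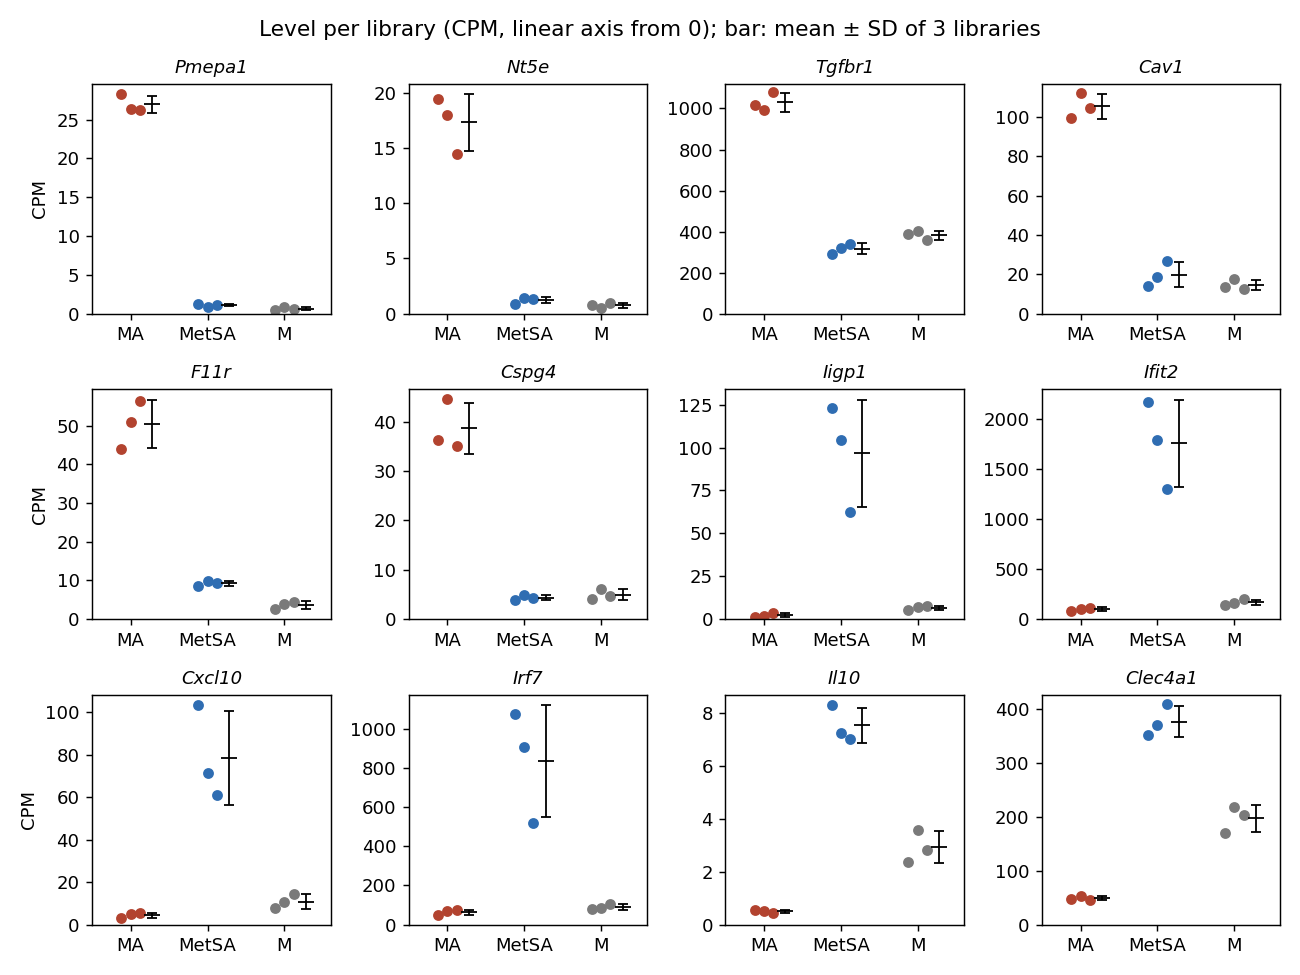
Level of 12 genes in each MA (red), MetSA (blue) and M (grey) library, in CPM on linear axes that start at 0. The bar beside each group is the mean ± SD of its 3 libraries. For Pmepa1, Nt5e, Tgfbr1, Cav1, F11r and Cspg4 every MA library lies above every MetSA and M library. For Iigp1, Ifit2, Cxcl10, Irf7, Il10 and Clec4a1 every MetSA library lies above every MA and M library, with replicate 3 the lowest of the 3 in all but Clec4a1.

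Promoter sequences from RefSeq (GRCm38.p6, 250 bases before to 50 after the transcription start) were searched on both strands for the core of the ISRE, GAAANNGAA. Counted per gene with a promoter in the table, it was present for 131 of 414 genes (31.6%) called at least 2-fold lower. Among genes called at least 2-fold higher it was present for 15 of 236 (6.36%). Of the 10641 genes tested that had a promoter 8.98% hold it. Counted per promoter and not per gene, 9.76% of all 27025 promoters in the table do. Among the lists, 14 of 26 type I interferon effectors with a promoter held it, and 9 of 10 of the GTPases. Of the 12 largest falls, 11 had a promoter in the table and 7 of those held the core; of the 12 largest rises, 8 had a promoter and 0 held it. The windows of 60 bases that follow are shown because they belong to the GTPases with the smallest adjusted p and to the genes with the largest falls. They run 5′ to 3′ in the direction of the gene, with the matched letters (GAAANNGAA or its reverse complement) in capitals.
Irgm1: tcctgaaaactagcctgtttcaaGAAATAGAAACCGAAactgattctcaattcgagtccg
Irgm2: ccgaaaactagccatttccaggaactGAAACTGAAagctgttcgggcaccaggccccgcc
Igtp: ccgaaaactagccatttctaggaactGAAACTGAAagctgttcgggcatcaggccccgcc
Tgtp2: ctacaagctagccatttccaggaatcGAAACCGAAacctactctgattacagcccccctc
Cxcl10: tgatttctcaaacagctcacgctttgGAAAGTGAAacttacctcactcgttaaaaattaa
Ifit3b: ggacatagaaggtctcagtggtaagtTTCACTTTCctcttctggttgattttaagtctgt
Ifit1bl1: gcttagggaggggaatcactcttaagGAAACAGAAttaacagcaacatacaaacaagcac
Ifi206: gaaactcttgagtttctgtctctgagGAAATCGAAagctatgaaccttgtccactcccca
Ifi213: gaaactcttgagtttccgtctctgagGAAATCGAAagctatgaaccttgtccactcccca

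On GRCm38.p6 these windows stand at chr11:48871414-48871473 (Irgm1, minus strand), chr11:58214887-58214946 (Irgm2, plus strand), chr11:58199496-58199555 (Igtp, plus strand) and chr11:49064249-49064308 (Tgtp2, minus strand). The others stand at chr5:92349069-92349128 (Cxcl10, minus strand), chr19:34607744-34607803 (Ifit3b, plus strand), chr19:34602127-34602186 (Ifit1bl1, minus strand), chr1:173491325-173491384 (Ifi206, minus strand) and chr1:173599312-173599371 (Ifi213, minus strand). In Irgm1 a pair of matches overlap into 1 run of capitals. The windows of Irgm2 and Igtp, neighbouring genes on chromosome 11, differ at 2 of 60 positions, and those of Ifi206 and Ifi213, of the family that senses DNA on chromosome 1, at 1 of 60. The seventh gene among the falls, Ifi44, held its match at position -3 from the start site, and its window, centred there, is not shown. A match is a description of the letters and no evidence of binding. The other motifs searched on both strands were counted per gene with a promoter too. AP-1 (TGANTCA) was in 14.7% of genes at least 2-fold lower, 9.75% of those at least 2-fold higher and 6.52% of all genes tested. In the same order GAS (TTCNNNGAA) was in 13.5%, 8.90% and 8.27%, NF-kB (GGANTTTCC) in 3.14%, 2.12% and 1.69%, and CRE (TGACGTCA) in 0.966%, 1.27% and 3.46%. The SMAD palindrome GTCTAGAC was in 0 of 414 genes at least 2-fold lower and in 1 of 236 of those at least 2-fold higher. Over all genes tested it was in 32 of 10641 genes with a promoter (0.301%), a share at which 0 and 1 matches show no contrast. The GAS letters can overlap an ISRE match.

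Sensors and signalling proteins upstream of these effectors moved less as a group: 18 of 26 tested members were called lower and 0 higher, with a median of -0.48 (18 lower and 1 higher without MetSA replicate 3). Irf7, the transcription factor that amplifies interferon production, had 48.97, 69.3 and 73.4 CPM with MA, against 1077, 909 and 519 CPM with MetSA and 77.6, 87.5 and 108 CPM in M (log2 -3.71 ± 0.29, adjusted p = 1.36e-05). The MetSA libraries varied about 2-fold among themselves and did not overlap with the MA or M libraries. Among receptors of RNA, RIG-I, Ddx58 (-2.12), MDA5, Ifih1 (-1.75), Tlr3 (-1.16) and Tlr7 (-0.81) were lower, and so was the DNA receptor Tlr9 (-1.19). A transcription factor downstream of the receptor, Stat2 (-2.23), had a larger difference than Irf9 (-0.54) and the kinases Tyk2 (-0.42) and Jak1 (-0.18). Ifnb1, which encodes interferon-beta, had too few counts to be tested: it had 0 counts in each MA library, where 3 counts would be 0.0559 to 0.0577 CPM, against 0.0412, 0.158 and 0.195 CPM in the MetSA libraries and 0, 0.037 and 0 CPM in M.

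Interferon-inducible chemokines and checkpoint ligands were called lower in 11 of 14 tested members and higher in 0, with a median of -1.41 (10 lower without MetSA replicate 3). Cxcl10, which draws T cells through the receptor Cxcr3, had 3.19, 4.88 and 5.29 CPM with MA, against 103, 71.3 and 61.04 CPM with MetSA and 7.69, 10.6 and 14.4 CPM in M (log2 -4.14 ± 0.36, adjusted p = 2.81e-05). Cd274 (PD-L1), the ligand that restrains T cells, had 19.7, 17.1 and 17.2 CPM with MA, against 54.01, 47.2 and 37.4 CPM with MetSA and 13.6, 12.3 and 14.1 CPM in M (log2 -1.36 ± 0.12, adjusted p = 4.05e-07), so that the MA libraries lay above medium alone and below MetSA. The death ligand TRAIL, Tnfsf10 (-3.56), the cytokine Il15 (-1.46) and the costimulatory ligand Cd86 (-0.88) were lower with MA too. Of the Cd274 exons, 14.1% overlap another annotated gene, and no source used here gives the strand of the reads.

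Of 31 tested NF-kB inflammatory genes, 24 were called lower, 1 was called higher and 6 were not called, with a median of -0.43 (-0.45 and 23 lower without MetSA replicate 3). Il10, an anti-inflammatory cytokine, had 0.559, 0.513 and 0.423 CPM with MA, against 8.32, 7.27 and 7.04 CPM with MetSA and 2.38, 3.59 and 2.83 CPM in M (log2 -3.91 ± 0.20, adjusted p = 1.55e-11). Each MA library was below 1 CPM and each MetSA library above 7 CPM, and medium alone lay between them. The inflammatory cytokine Il1b had 4.14, 6.14 and 3.89 CPM with MA, against 15.5, 18.97 and 14.4 CPM with MetSA (log2 -1.79 ± 0.20, adjusted p = 1.01e-05). Tnf had 14.5, 13.2 and 14.8 CPM with MA, against 22.3, 19.3 and 22.7 CPM with MetSA (log2 -0.60 ± 0.09, adjusted p = 2.85e-05), a far smaller difference. Nfkbiz (-1.78), a nuclear co-regulator of NF-kB, and the chemokines Ccl4 (-1.96), Ccl3 (-1.34) and Ccl5 (-3.80) were lower. The subunits of NF-kB itself differed by little: Nfkb1 (-0.21), Nfkb2 (-0.27), Relb (-0.29) and Rel (-0.27). Tlr2, the receptor of bacterial lipopeptides, was the member called higher (log2 0.25 ± 0.07, adjusted p = 0.0156), a call lost without MA replicate 2, MA replicate 3 or MetSA replicate 1 (adjusted p from 0.0529 to 0.11). Fitting only the MA and MetSA libraries lost it too (adjusted p = 0.0549). The call of Nos2, which was at most 0.329 CPM in any of the 6 libraries, was lost without MA replicate 1, MA replicate 3 or MetSA replicate 1 as well (adjusted p from 0.072 to 0.12).

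MHC class I molecules, their peptide transporters and the immunoproteasome were called lower in 18 of 18 tested members, with a median of -1.02 (-1.14 without MetSA replicate 3). Tap1, which pumps peptides into the endoplasmic reticulum, had 76.2, 79.2 and 85.99 CPM with MA, against 305, 271 and 223 CPM with MetSA and 100.4, 99.1 and 106 CPM in M (log2 -1.73 ± 0.09, adjusted p = 4.12e-11). The light chain B2m had 1456, 1369 and 1403 CPM with MA, against 2713, 2364 and 2225 CPM with MetSA (log2 -0.79 ± 0.09, adjusted p = 3.05e-06). Nlrc5, the transactivator of the class I genes, had 64.5, 68.2 and 60.3 CPM with MA, against 179, 184 and 116 CPM with MetSA (log2 -1.31 ± 0.14, adjusted p = 2.18e-05). The class I genes of the H2 complex are near copies of each other, and the counts of H2-Q6, H2-Q7, H2-T22 and H2-T23 are uncertain for that reason. MHC class II genes were called lower in 6 of 10 tested members and higher in 1, with a median of -0.87 (5 lower and 1 higher without MetSA replicate 3). Cd74, the invariant chain, had 54.7, 65.9 and 72.9 CPM with MA, against 159.9, 193 and 227 CPM with MetSA and 131, 173 and 197 CPM in M (log2 -1.58 ± 0.20, adjusted p = 0.000201). Ciita, the master regulator of the class, had 1.88, 3.08 and 3.44 CPM with MA, against 6.09, 8.93 and 7.69 CPM with MetSA and 7.39, 8.09 and 8.83 CPM in M (log2 -1.44 ± 0.19, adjusted p = 7.42e-06). In these class II genes the MetSA libraries lay near medium alone and the MA libraries below both, unlike Tap1, where MA lay a little below medium (log2 fold change -0.34, adjusted p = 0.00727) and MetSA above it. The member called higher was H2-Ob, a low-level subunit of the peptide editor H2-O, with 1.70, 2.43 and 2.12 CPM with MA, against 0.7, 0.514 and 1.01 CPM with MetSA (log2 1.48 ± 0.38, adjusted p = 0.00576).

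Receptors of IgG and their signalling chain followed the interferon genes in direction: 5 of 6 tested members of the Fc gamma receptor list were called lower, with and without MetSA replicate 3, and 0 higher. Fcgr1, the high-affinity receptor of IgG, had 290.1, 321 and 326 CPM with MA, against 1385, 1171 and 909 CPM with MetSA and 272, 318 and 332 CPM in M (log2 -1.89 ± 0.13, adjusted p = 2.2e-07). Fcgr4 had 28.1, 29.4 and 30.98 CPM with MA, against 242, 225 and 171 CPM with MetSA (log2 -2.85 ± 0.20, adjusted p = 3.67e-06). The other called members were Fcgrt (-0.69), Fcer1g (-0.49) and Fcgr3 (-0.44).

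Pmepa1, a membrane adaptor that binds SMAD proteins and dampens TGF-beta signalling, had the highest rise at 10 CPM or more (ENSMUSG00000038400, chr2:173224458-173276533, minus strand). Its levels were 28.2, 26.4 and 26.3 CPM with MA, against 1.24, 0.909 and 1.17 CPM with MetSA and 0.524, 0.815 and 0.65 CPM in M. The MA libraries stood 24.4-fold above the MetSA libraries (log2 4.61 ± 0.17, adjusted p = 3.87e-13), with little spread. Tgfbr1, the type I receptor kinase of TGF-beta, had 1018, 993 and 1082 CPM with MA, against 290.1, 319 and 342 CPM with MetSA and 388, 402 and 358 CPM in M (log2 1.70 ± 0.07, adjusted p = 1.14e-12). Smad7, which targets that receptor for breakdown, had 18.3, 19.1 and 19.5 CPM with MA, against 8.15, 7.19 and 7.38 CPM with MetSA (log2 1.32 ± 0.10, adjusted p = 5.48e-09). Tgfbi, a matrix protein named for its induction by TGF-beta, had 466, 521 and 502 CPM with MA, against 156, 184 and 188 CPM with MetSA (log2 1.496 ± 0.09, adjusted p = 2.64e-10). In each of these genes every MA library lay above every MetSA library, which the rule that chose Pmepa1 required. The groups did not overlap in 38.8% of all genes tested. Over the list, 12 of 26 tested members were called higher and 6 lower, with a median of 0.29, and leaving out MetSA replicate 3 gave the same 12 and 6 in number. The co-repressors Ski (0.65) and Skil (0.43) were higher, and so was the decoy receptor Bambi (1.09). The members that went the other way were Id1 (-2.07), Id3 (-1.62), Tgfb3 (-1.42), Cited2 (-0.80), Smad3 (-0.45) and Tgfb1 (-0.20); Id1 and Id3, inhibitors of helix-loop-helix transcription factors, are known as targets of the BMP branch of the family. The second receptor gene, Tgfbr2, differed by 0.00 with a 95% interval of -0.14 to 0.15, and Smad4, the common SMAD, by -0.11 with a 95% interval of -0.23 to 0.01.

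**Figure D3:**
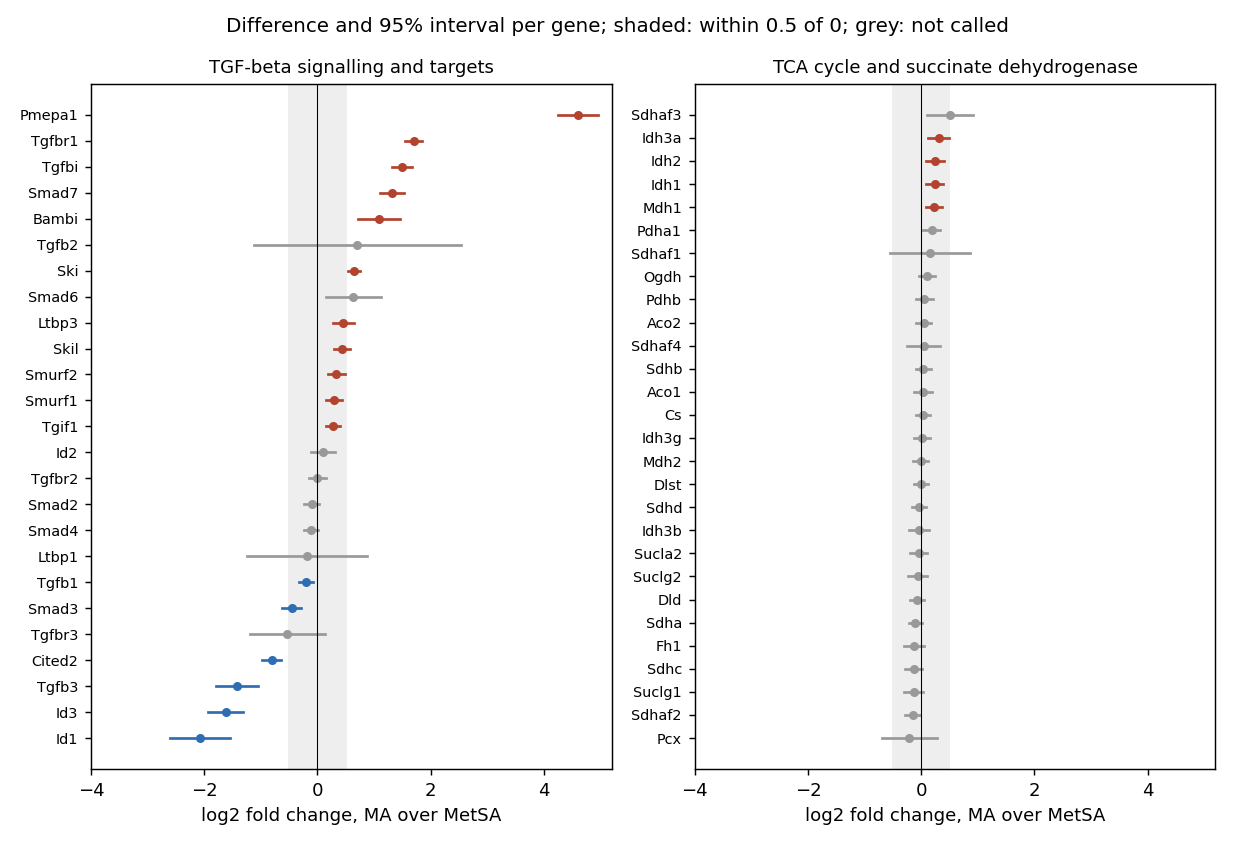
Log2 fold change, MA over MetSA, with its 95% interval for members of the TGF-beta list (left, 25 of the 26 tested) and each tested member of the TCA cycle and succinate dehydrogenase list (right, 28 genes). Red was called higher with MA, blue lower, grey not called, and the shaded band is 0.5 to either side of 0. The TGF-beta genes spread from -2.07 (Id1) to 4.61 (Pmepa1), while 25 of the 28 TCA cycle genes have their interval inside the band. Of all genes tested 50.8% do.

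Nt5e, the surface enzyme CD73 that makes adenosine from AMP (chr9:88327197-88372092, plus strand), had 19.4, 17.99 and 14.5 CPM with MA, against 0.906, 1.42 and 1.33 CPM with MetSA and 0.745, 0.519 and 0.974 CPM in M (log2 3.82 ± 0.22, adjusted p = 1.43e-10). It was the only member of the adenosine list called higher. Of its 10 tested members 2 were called lower: Pnp, which breaks down inosine and shares 15.8% of its transcript with other genes (log2 -1.48 ± 0.11, adjusted p = 2.84e-07), and the transporter Slc29a3 (log2 -0.26 ± 0.05, adjusted p = 0.000818). The receptor Adora2b was at 3.58, 3.00 and 2.94 CPM with MA, against 4.36, 3.81 and 4.96 CPM with MetSA and did not pass the test (adjusted p = 0.0639).

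Adhesion and caveolae genes had the highest median of the lists, 0.75, with 11 of 20 tested members called higher and 2 lower (11 and 1 without MetSA replicate 3). Cav1, the main coat protein of caveolae, had 99.3, 112 and 105 CPM with MA, against 14.1, 18.5 and 26.8 CPM with MetSA and 13.7, 17.6 and 12.7 CPM in M (log2 2.41 ± 0.26, adjusted p = 8.57e-05). F11r, the junctional adhesion molecule A, had 43.98, 51.04 and 56.4 CPM with MA, against 8.48, 9.88 and 9.33 CPM with MetSA and 2.58, 3.89 and 4.47 CPM in M (log2 2.45 ± 0.15, adjusted p = 2.77e-09), and here the MetSA libraries lay above medium alone too. The integrin subunits Itgb5 (0.96), Itga6 (0.76), Itgav (0.75), Itga5 (0.68) and Itgax (1.22) were higher, as was the tetraspanin Cd9 (1.24). Fibronectin, Fn1, had 41.5, 26.5 and 25.5 CPM with MA, against 8.95, 2.93 and 7.22 CPM with MetSA (log2 2.29 ± 0.41, adjusted p = 0.00261), with a larger standard error than any other member called here. Of the 2 members called lower, Cavin1 lost its call without MA replicate 3 (adjusted p = 0.105) or MetSA replicate 3 (adjusted p = 0.0772). Vcam1 lost its call without MA replicate 1 or 2 or MetSA replicate 1 or 3 (adjusted p from 0.0537 to 0.087). Fitting only the MA and MetSA libraries lost it too (adjusted p = 0.0527).

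Cspg4, a chondroitin sulphate proteoglycan of the cell surface, had 36.3, 44.5 and 35.02 CPM with MA, against 3.95, 4.82 and 4.37 CPM with MetSA and 4.15, 6.15 and 4.64 CPM in M (log2 3.14 ± 0.17, adjusted p = 3.16e-10), the third largest rise at 10 CPM or more in the higher group. Ptgfrn, a partner protein of tetraspanins, had 98.7, 111 and 97.2 CPM with MA, against 17.9, 23.3 and 19.9 CPM with MetSA and 16.9, 21.1 and 15.4 CPM in M (log2 2.33 ± 0.18, adjusted p = 1.93e-06). Spsb1, a substrate adaptor of a ubiquitin ligase, had 13.9, 14.2 and 13.2 CPM with MA, against 1.19, 2.43 and 2.17 CPM with MetSA and 1.57, 1.83 and 1.41 CPM in M (log2 2.83 ± 0.19, adjusted p = 8.61e-10). In these 3 genes the MetSA libraries lay at the level of medium alone and overlapped with it. Htr2b, a serotonin receptor, had 14.05, 11.7 and 12.2 CPM with MA, against 2.53, 1.68 and 1.68 CPM with MetSA (log2 2.69 ± 0.18, adjusted p = 1e-09). Rab11fip4, a partner of the recycling GTPase Rab11, had 13.1, 13.3 and 12.4 CPM with MA, against 2.02, 2.17 and 1.95 CPM with MetSA (log2 2.66 ± 0.15, adjusted p = 6.42e-11). The collagens Col15a1 and Col14a1 were higher by 2.76 and 2.53, with all MA libraries above 11 CPM and all MetSA libraries below 4 CPM. Of the exons of Htr2b, 11.8% overlap another gene. Across all 12 the log2 fold changes of MA over M ran from 1.71 to 5.34, and those of MetSA over M from -0.70 to 1.34; both share the M libraries.

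The smallest adjusted p-values marked genes with a tight spread, several of which belong to no list. Dmpk, a serine-threonine kinase known from myotonic dystrophy, had 2.57, 2.68 and 2.67 CPM with MA, against 27.9, 24.3 and 22.6 CPM with MetSA and 30.01, 25.6 and 27.4 CPM in M (log2 -3.24 ± 0.12, adjusted p = 4.82e-13): the MA libraries were low and the MetSA libraries overlapped with medium alone. Clec4a1, a C-type lectin receptor, had 48.4, 53.7 and 45.6 CPM with MA, against 352, 370.5 and 409 CPM with MetSA and 171, 219 and 203 CPM in M (log2 -2.94 ± 0.09, adjusted p = 2.3e-13), the MA libraries below and the MetSA libraries above medium. The same order held for the chemokine Ccl6, with 79.8, 78.1 and 81.9 CPM with MA, against 284, 249.99 and 289 CPM with MetSA and 191, 199 and 197 CPM in M (log2 -1.78 ± 0.07, adjusted p = 3.87e-13). It held too for Cfp, properdin, which stabilises the convertase of the alternative complement pathway, with 159.8, 173 and 164 CPM with MA, against 532, 528 and 578 CPM with MetSA and 396, 409 and 438 CPM in M (log2 -1.72 ± 0.06, adjusted p = 3.87e-13). Dck, which phosphorylates deoxynucleosides, had 92.5, 93.1 and 101 CPM with MA, against 362, 322 and 306 CPM with MetSA and 117, 124 and 118 CPM in M (log2 -1.79 ± 0.07, adjusted p = 3.87e-13). The rule that chose the genes of this paragraph required groups that do not overlap, as in 38.8% of all genes tested. Higher with MA was Vwf, the clotting protein von Willebrand factor, with 87.4, 94.9 and 83.8 CPM with MA, against 18.2, 20.6 and 19.01 CPM with MetSA and 41.1, 39.1 and 34.2 CPM in M (log2 2.20 ± 0.08, adjusted p = 3.87e-13). So were Rai14, an actin-associated protein, with 51.5, 48.7 and 46.8 CPM with MA, against 11.6, 11.9 and 12.4 CPM with MetSA (log2 2.04 ± 0.08, adjusted p = 1.14e-12), and Pald1 (1.98). Sox4, a transcription factor, had 93.02, 89.4 and 93.2 CPM with MA, against 28.7, 29.2 and 30.6 CPM with MetSA and 58.02, 57.1 and 55.7 CPM in M (log2 1.64 ± 0.06, adjusted p = 4.82e-13), with 54.6% of its exons overlapping another gene. Vwf and Sox4 were ordered with MA above and MetSA below medium alone.

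Matrix metalloproteinases and their inhibitors split: 5 of 15 tested members were called higher and 4 lower. Mmp2 and Mmp14, a gelatinase and the membrane enzyme that activates it, were higher (1.14 and 0.55), with the inhibitor Timp2 (0.29). Mmp13, a collagenase, had 9.47, 7.62 and 9.33 CPM with MA, against 43.1, 41.3 and 31.7 CPM with MetSA and 10.8, 12.8 and 15.02 CPM in M (log2 -2.14 ± 0.17, adjusted p = 7.92e-07). Mmp9, the other gelatinase, had 4.68, 3.29 and 5.12 CPM with MA, against 11.8, 12.3 and 14.99 CPM with MetSA and 35.6, 24.3 and 26.4 CPM in M (log2 -1.58 ± 0.17, adjusted p = 1.42e-06), below medium in both acids. Markers of alternative activation split as well, with 4 of 15 called higher and 5 lower. Arg1, arginase, had 4.29, 4.83 and 4.14 CPM with MA, against 2.26, 1.21 and 0.781 CPM with MetSA and 0.463, 0.722 and 0.994 CPM in M (log2 1.64 ± 0.30, adjusted p = 0.000347). The mannose receptor Mrc1 had 236, 196 and 189.6 CPM with MA, against 655, 634 and 717 CPM with MetSA and 905, 819 and 755 CPM in M (log2 -1.69 ± 0.09, adjusted p = 9.44e-11). The lectins Clec10a (-2.84) and Mgl2 (-3.01) and the scavenger receptor Cd163 (-1.30) were lower. The median of -0.41 was 0.00 with a stricter filter on low counts, which leaves fewer of its members. It was -0.12 without MA replicate 2, -0.27 without MetSA replicate 3 and -0.90 without MA replicate 3.

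Of the 20 macrophage identity genes, 11 were called lower and 5 higher, with and without MetSA replicate 3. The surface marker Adgre1 (F4/80) had 1957, 1882 and 2006 CPM with MA, against 2911, 2999 and 3584 CPM with MetSA and 2566, 2720.4 and 2598 CPM in M (log2 -0.70 ± 0.07, adjusted p = 1.59e-07). PU.1, Spi1 (-0.38), Csf1r (-0.27), Cd14 (-0.41) and the complement subunits C1qa (-0.44), C1qb (-0.45) and C1qc (-0.48) were lower by less than 2-fold. Cx3cr1, the fractalkine receptor, had 907, 974 and 1048 CPM with MA, against 224, 335 and 402 CPM with MetSA and 168, 229 and 229.9 CPM in M (log2 1.61 ± 0.25, adjusted p = 0.00114), and the transcription factor Cebpa (0.98) and the uptake receptor Mertk (0.42) were higher. Among 8 tested osteoclast and cell fusion genes, 2 were called in each direction: Dcstamp (-0.90), which drives cell fusion, and RANK, Tnfrsf11a (-0.32), were lower, and Acp5 (TRAP) and Nfatc1 were higher by 0.52 and 0.18. The higher calls were lost without MetSA replicate 1 for Acp5 (adjusted p = 0.0529), and for Nfatc1 without MA replicate 1 or 2 or MetSA replicate 1 or 3 (adjusted p from 0.064 to 0.102). With no filter on low counts Nfatc1 was not called either (adjusted p = 0.0894).

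Targets of NRF2, the transcription factor of the electrophile and oxidant response, were called higher in 16 of 31 tested members and lower in 2, with a median of 0.25 (19 higher and 1 lower without MetSA replicate 3). Gclc, the catalytic subunit of glutathione synthesis, had 43.96, 44.1 and 43.1 CPM with MA, against 26.8, 27.2 and 30.9 CPM with MetSA and 44.6, 40.8 and 42.95 CPM in M (log2 0.63 ± 0.07, adjusted p = 7.99e-07), so that MA lay at the level of medium alone and MetSA below it. Txnrd1, thioredoxin reductase, showed the same order, with 274, 251 and 267 CPM with MA, against 156, 167 and 202 CPM with MetSA and 299, 258 and 254 CPM in M (log2 0.59 ± 0.08, adjusted p = 2.02e-05). Hmox1, heme oxygenase, had 366, 323 and 358 CPM with MA, against 247, 245 and 314 CPM with MetSA (log2 0.38 ± 0.09, adjusted p = 0.00328). The cystine transporter Slc7a11 had 5.01, 5.05 and 4.31 CPM with MA, against 1.56, 1.17 and 3.47 CPM with MetSA (log2 1.21 ± 0.28, adjusted p = 0.00265). In both genes MetSA replicate 3 was nearest to the MA libraries. Keap1, the protein that marks NRF2 for breakdown, was lower, with 39.7, 41.1 and 40.2 CPM with MA, against 66.7, 63.4 and 53.7 CPM with MetSA (log2 -0.60 ± 0.08, adjusted p = 4.52e-06). G6pdx was lower too (log2 -0.29 ± 0.09, adjusted p = 0.0259), a call lost without MA replicate 1 or 2 or MetSA replicate 3 (adjusted p from 0.0655 to 0.126). Fitting only the MA and MetSA libraries (adjusted p = 0.0926) or upper-quartile scaling (adjusted p = 0.0717) lost it too.

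Prdx5, the peroxiredoxin named in the title of the series, had 222, 231 and 249.7 CPM with MA, against 211, 199.6 and 170.1 CPM with MetSA and 115, 113 and 131 CPM in M (log2 0.27 ± 0.08, adjusted p = 0.0115). The lowest MA library lay above the highest MetSA library by little, and both groups lay above medium alone. The call was lost without MA replicate 3 (adjusted p = 0.0669) or MetSA replicate 3 (adjusted p = 0.055), and 19.1% of its exons overlap another gene. Of 18 tested peroxiredoxins and hydrogen peroxide enzymes, 7 were called higher and 1 lower, and 4 higher without MA replicate 3 or MetSA replicate 2. Prdx6 (0.49) and the sulfiredoxin Srxn1 (0.39), which repairs overoxidised peroxiredoxins, were higher and the glutaredoxin Glrx (-0.42) lower.

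The lists for stress of the endoplasmic reticulum and for amino acid supply had calls in both directions, to be read beside 11.6% higher and 14.7% lower of all genes tested. Of 22 tested chaperones and unfolded protein response genes, 8 were called lower and 2 higher, with a median of -0.14. Without MA replicate 1, MA replicate 2 or MetSA replicate 2, and under upper-quartile scaling, 5 were lower. Hspa5 (BiP), the main chaperone of the compartment, had 1087, 995 and 1048 CPM with MA, against 1443, 1452 and 1447 CPM with MetSA and 843, 949 and 827 CPM in M (log2 -0.47 ± 0.06, adjusted p = 8.18e-06). Of 32 tested ATF4 and integrated stress response genes, 9 were called lower and 5 higher: CHOP, Ddit3 (-1.13), Mthfd2 (-0.90), Gdf15 (-0.96) and Atf4 (-0.37) itself were lower, and Psat1 (0.50) and Cebpg (0.28) higher. Atf3 had 344, 301 and 341 CPM with MA, against 421, 379 and 385 CPM with MetSA (log2 -0.27 ± 0.07, adjusted p = 0.00431). Among 14 heat shock chaperones 2 were called higher, Hsph1 (0.51) and Bag3 (0.25), and 1 lower, Dnaja1 (-0.25); without MetSA replicate 3 the higher members numbered 4.

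The transcripts of succinate dehydrogenase, the enzyme that malonic acid inhibits, were not called. Sdha, the flavoprotein subunit, differed by -0.10 with a 95% interval of -0.22 to 0.02 (adjusted p = 0.214), with 225, 231 and 238 CPM with MA, against 265, 236 and 245 CPM with MetSA, and Sdhb, the iron-sulphur subunit, by 0.04 with a 95% interval of -0.10 to 0.18 (adjusted p = 0.721). The membrane anchors Sdhc and Sdhd differed by -0.13 (-0.28 to 0.02) and -0.04 (-0.16 to 0.08). Of 28 tested TCA cycle genes 4 were called, all higher, with a median of 0.02: Idh3a (0.31), Idh2 (0.25), Idh1 (0.24) and Mdh1 (0.23). Each of these calls was lost without one library or another, and 2 members were called without MA replicate 1 or MetSA replicate 1. Without MetSA replicate 2 all 4 calls were lost (adjusted p from 0.0505 to 0.119), and 1 other member was called. Of the 28, 25 had a 95% interval within 0.5 of 0, a share to be read beside 50.8% of all genes tested. Other lists came near this share, with 20 of 22 endoplasmic reticulum genes, 31 of 37 lysosome genes and 28 of 34 glycolysis genes. The TGF-beta list, by contrast, had 8 of 26. The enzymes of malonate handling were not called: Acsf3, which activates malonate with coenzyme A, differed by 0.12 with a 95% interval of -0.11 to 0.35, and Mlycd, which removes carbon dioxide from malonyl-CoA, by 0.06 with a 95% interval of -0.14 to 0.26. Acod1, which makes itaconate from the TCA cycle, had 4.81, 6.27 and 6.10 CPM with MA, against 14.99, 10.9 and 8.22 CPM with MetSA and 1.49, 2.09 and 3.19 CPM in M (log2 -0.99 ± 0.24, adjusted p = 0.00922), above medium in both groups and highest with MetSA.

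Among 19 tested genes of dicarboxylate handling and itaconate metabolism, 3 were called lower and 1 higher, where 26.4% of all genes tested were called and 14.7% were lower. Slc13a3, a sodium-coupled importer of dicarboxylates, had 3.73, 5.03 and 5.50 CPM with MA, against 10.6, 11.9 and 12.9 CPM with MetSA and 13.6, 14.5 and 11.6 CPM in M (log2 -1.31 ± 0.14, adjusted p = 5.63e-07). The mitochondrial dicarboxylate carrier Slc25a10 had 43.98, 41.1 and 44.04 CPM with MA, against 53.5, 55.7 and 61.9 CPM with MetSA (log2 -0.41 ± 0.07, adjusted p = 9.48e-05). Slc16a1, a monocarboxylate transporter, was the member called higher (log2 0.31 ± 0.11, adjusted p = 0.0491), a call lost in 5 of the 6 fits that left out an MA or MetSA library. Leaving out itaconic acid replicate 1 or M replicate 1 or 2 lost it too (adjusted p from 0.052 to 0.058). Nuclear-encoded respiratory chain subunits had 23 of 29 tested members with an interval within 0.5 of 0, and were called lower in 2 and higher in 0: Cycs (-0.39), which shares 22.6% of its transcript, and Cox5a (-0.37), whose call was lost without MA replicate 2 or 3 or MetSA replicate 1 or 2 (adjusted p from 0.063 to 0.113). Of 12 mitochondrially encoded mRNAs 0 were called in the fit reported, and 6 were called higher without MetSA replicate 3. The transcript mt-Nd1 had 928, 853 and 952 CPM with MA, against 543, 549.8 and 810.4 CPM with MetSA. Of the MetSA libraries, replicate 3 alone was close to the MA libraries.

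Glycolysis and HIF-1 targets were called lower in 9 of 34 tested members and higher in 4 (8 lower and 7 higher without MetSA replicate 3), all by less than 2-fold. Without MetSA replicate 1 the higher members numbered 2, and with the replicate block they numbered 7. Of all genes tested 14.7% were lower and 11.6% higher, so 4 of 34 higher is near that share. Pdk1, which shuts pyruvate out of the TCA cycle, had 57.8, 63.5 and 64.3 CPM with MA, against 83.02, 86.7 and 86.3 CPM with MetSA (log2 -0.46 ± 0.07, adjusted p = 3.01e-05), and Ldha (-0.23), Pgk1 (-0.27) and Tpi1 (-0.28) were lower, while the glucose transporter Slc2a1 (0.33) and Hif1a (0.23) were higher. Hk2, hexokinase 2, had 105, 113 and 116 CPM with MA, against 90.5, 99.2 and 81.3 CPM with MetSA and 44.5, 47.1 and 45.4 CPM in M (log2 0.30 ± 0.07, adjusted p = 0.00309). Every library of both groups lay above medium alone, and the MA libraries above the MetSA libraries.

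Cholesterol synthesis genes and other targets of SREBP2 were called lower in 13 of 25 tested members and higher in 0, with a median of -0.27 (12 lower without MetSA replicate 3). Msmo1 (-0.49), Insig1 (-0.44), Cyp51 (-0.53), Fdps (-0.58) and Hmgcs1 (-0.30) were lower; 12.1% of the exons of Hmgcs1 overlap another gene. LXR targets and lipid efflux genes were called higher in 8 of 25 and lower in 5. This count and those of the lysosome and iron lists below stand beside 11.6% higher and 14.7% lower of all genes tested. Abca1, which exports cholesterol to lipoproteins, had 1246, 1273 and 1059.5 CPM with MA, against 808, 906 and 759 CPM with MetSA and 913, 879 and 734 CPM in M (log2 0.53 ± 0.09, adjusted p = 0.000268). Further, Mylip (0.80), Fads2 (0.69) and Cpt1a (0.50) were higher, whereas the nuclear receptor Pparg (-1.08) and the second exporter Abcg1 (-0.29) were lower. In the lysosome list, 8 of 37 were called higher and 6 lower (8 and 4 without MetSA replicate 3): Ctsd (0.70), which shares 30.2% of its transcript, and Npc1 (0.61) were higher, and Npc1's partner in cholesterol export, Npc2 (-0.72), lower. Iron genes gave 3 higher and 4 lower of 13, with Fth1 (0.46), the ferritin heavy chain, higher and Cp (-2.55), ceruloplasmin, and Ncoa4 (-0.48), which delivers ferritin for breakdown and shares 16.0% of its transcript, lower.

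Mitosis and G2/M genes were called higher in 11 of 28 tested members and lower in 0, with a median of 0.29. Ccnb1, cyclin B1, had 14.5, 12.4 and 14.7 CPM with MA, against 8.93, 8.30 and 10.9 CPM with MetSA and 15.8, 16.2 and 14.9 CPM in M (log2 0.56 ± 0.11, adjusted p = 0.000647), with 14.9% of its transcript shared with other genes. The MA libraries lay just below medium and the MetSA libraries below them. The count fell to 5 without MA replicate 1, MetSA replicate 1 or MetSA replicate 2 and to 7 without MA replicate 3, and was 14 without MetSA replicate 3. S phase genes were called lower in 4 of 33 and higher in 1, E2f2 (0.94), with Mcm10 (-0.76) the lowest of those called. In the fit reported neither count is above the share of all genes tested, 14.7% lower and 11.6% higher. Without MA replicate 2 or MetSA replicate 1 the lower calls numbered 2, and without MA replicate 1 they numbered 7. MYC targets and ribosome biogenesis genes were called higher in 7 of 23 and lower in 1, Odc1 (-0.46), and 3 to 4 were higher without MA replicate 1, MA replicate 3, MetSA replicate 1 or MetSA replicate 2. Targets of p53 were called lower in 13 of 23 and higher in 2, with a median of -0.26 (12 and 2 without MetSA replicate 3): the death gene Pmaip1 (Noxa) had 18.7, 22.6 and 21.5 CPM with MA, against 57.9, 56.1 and 53.1 CPM with MetSA (log2 -1.41 ± 0.09, adjusted p = 5.65e-10), p21, Cdkn1a (-0.80), and Btg2 (-0.83) were lower, and Gadd45a (1.52) and Xpc (0.35) higher. Immediate early genes and MAP kinase feedback genes were called lower in 12 of 25 and higher in 3: Klf2 (-1.46), Dusp1 (-0.99), a phosphatase of MAP kinases, and Spred1 (-0.52) were lower and Egr2 (0.49) higher. Without MA replicate 2 the higher members numbered 1.

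**Figure D4:**
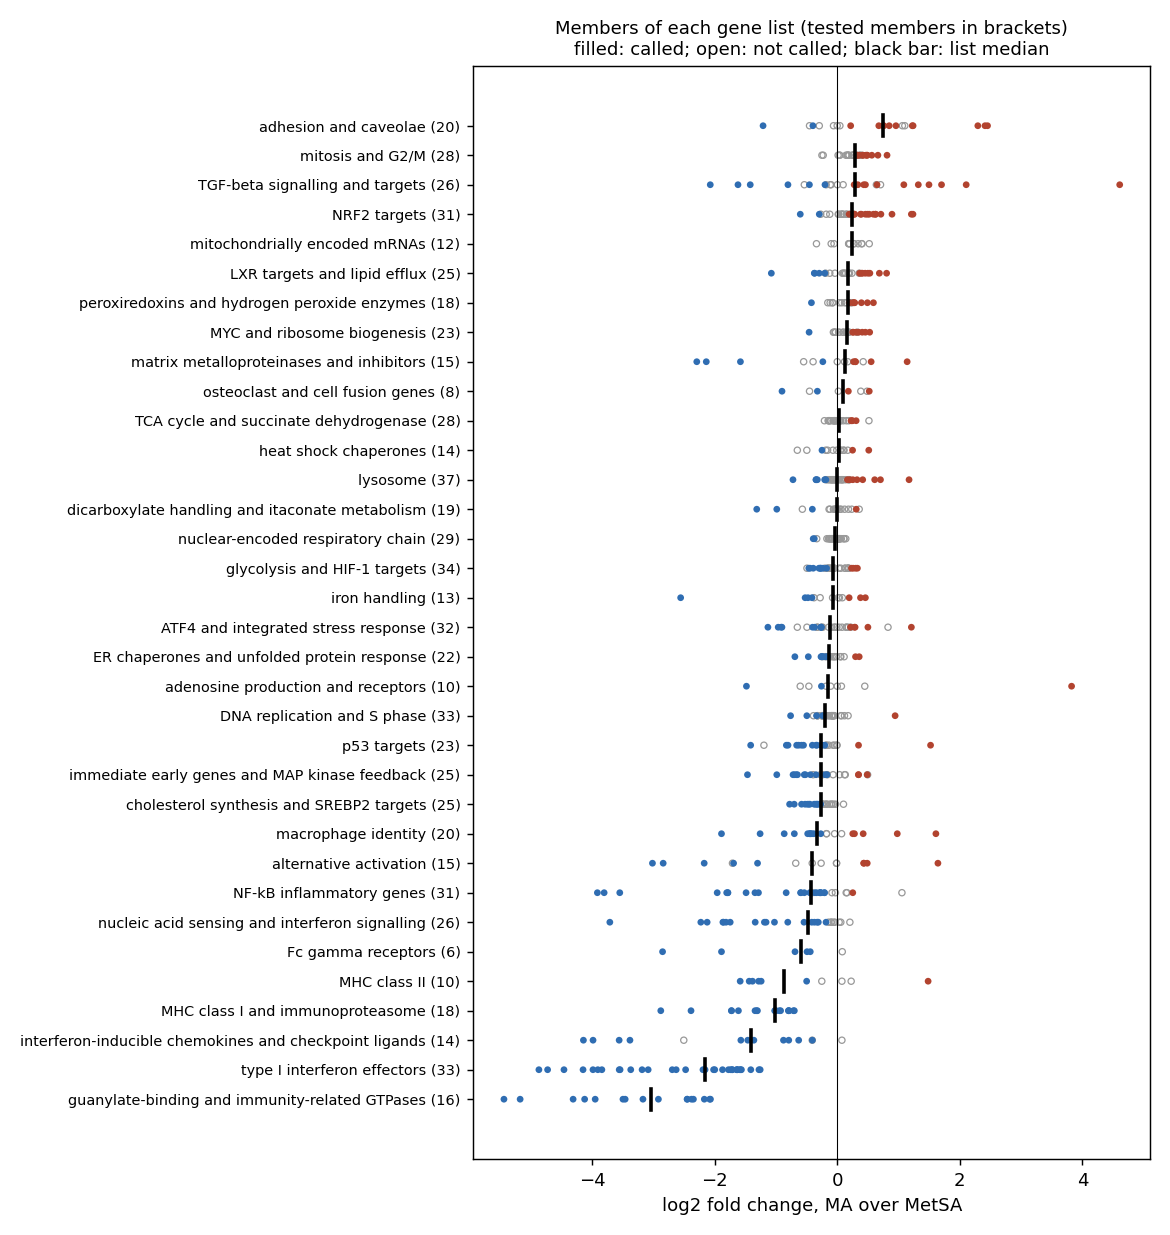
Every tested member of 34 gene lists by its log2 fold change, MA over MetSA. Filled points were called (red higher with MA, blue lower), open points were not, and the black bar is the median of the list. The interferon, GTPase, chemokine and MHC class I lists lie wholly or nearly wholly left of 0, with medians down to -3.04, and adhesion and caveolae has the highest median, 0.75.

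Markers of other cells were low or split. Of 11 tested neutrophil markers 0 were called in the fit reported, 4 were called lower with no filter on low counts and 2 with the replicate block. Their levels summed from 259 to 277 CPM with MA, against 257 to 274 CPM with MetSA and 169 to 223 CPM in M. Dendritic cell markers summed from 8.29 to 9.52 CPM with MA, against 14.7 to 22.1 CPM with MetSA and 11.9 to 15.8 CPM in M, with 3 of 10 called lower, Xcr1, Irf4 and Batf3 (log2 fold changes -2.14, -1.53 and -0.96); the call of Batf3 was lost without MA replicate 1 (adjusted p = 0.0895). Lymphocyte markers summed from 10.7 to 11.03 CPM with MA, against 21.2 to 27.9 CPM with MetSA and 12.8 to 15.04 CPM in M, nearly all of it Cd4, which macrophages can express and which was lower with MA (log2 -1.23 ± 0.12, adjusted p = 3.14e-07). Of the 12 lymphocyte markers 8 had too few counts to be tested, and Cd3d, Ncr1 and Gzmb had 0 counts in all 6 libraries. Klrb1c, a receptor of natural killer cells, was called higher at 0.112, 0.19 and 0.346 CPM with MA, against 0, 0 and 0.039 CPM with MetSA (adjusted p = 0.0395), at levels of a few counts. The call was lost without MA replicate 2 or 3 or MetSA replicate 1 or 2. Leaving out any 1 of the itaconic acid libraries lost it too (adjusted p from 0.0517 to 0.0537). Stromal and endothelial markers summed from 24.5 to 44.6 CPM with MA, against 40.1 to 70.1 CPM with MetSA and 21.2 to 49.9 CPM in M, and Lum had 0 counts in all 6 libraries. The endothelial markers on the list, Kdr, Pecam1 and Cdh5, were lower, with log2 fold changes of -2.17, -1.55 and -1.25. The 3 collagens on the list, Col1a1, Col1a2 and Col3a1, were not called. Col3a1 had 5.22, 1.79 and 3.27 CPM with MA, against 3.17, 0.791 and 1.83 CPM with MetSA, and was called higher with the replicate block (log2 fold change 0.87, adjusted p = 0.00722). With no filter on low counts all 3 were called higher (adjusted p from 0.00111 to 0.0337). Col15a1, Col14a1 and Vwf, described above, are not on the list of stromal and endothelial markers, and all of them were higher with MA. Of 4 tested mast cell, basophil and erythroid markers 2 were called lower, Hdc (-1.84) and Epor (-1.72), Mcpt8 had 0 counts in all 6 libraries, and the list summed from 1.03 to 1.90 CPM with MA, against 4.05 to 4.84 CPM with MetSA and 2.43 to 2.90 CPM in M. The part of such cells in the differences above was not tested.

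Each acid was also set against medium alone, in the same fit. MA against M gave 2860 calls (20.3% of genes tested, 10.1% higher and 10.1% lower), and MetSA against M gave 2989 (21.2%, 12.6% higher and 8.53% lower). These comparisons share the M libraries, and each shares a group with the direct one, so their values are given side by side and not related to each other. For the type I interferon effectors the median log2 fold change was -0.44 for MA over M, with 18 of 33 called lower and 0 higher. It was 1.87 for MetSA over M, with 33 called higher. For the GTPases it was -0.84 with 12 of 16 lower, and 2.33 with 16 higher. For MHC class I it was -0.13 with 1 of 18 lower, and 1.04 with 18 higher. MHC class II had -0.46 with 5 of 10 lower and 3 higher, and 0.24 with 2 higher and 0 lower.

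Other gene groups differed in where medium alone stood. Adhesion and caveolae genes had a median of 0.50 for MA over M, with 11 of 20 higher and 3 lower, and -0.05 for MetSA over M, with 4 higher and 5 lower. NRF2 targets had 0.05, with 6 of 31 higher and 2 lower, and -0.11, with 2 higher and 6 lower. Mitosis genes had -0.35, with 13 of 28 lower, and -0.63, with 26 lower. Cholesterol synthesis genes had 0.10, with 6 of 25 higher, and 0.36, with 17 higher. Of the genes that MA and MetSA moved in opposite directions against medium, each call passing the test, the 6 with the largest difference were Iigp1, Ifit1bl1, Tgtp2, Trim30c, Ifit2 and Cxcl10. They ran from -0.76 (Ifit2, adjusted p = 0.0374) to -2.02 (Ifit1bl1, adjusted p = 0.0117) for MA over M and from 2.85 (Cxcl10) to 3.84 (Iigp1) for MetSA over M.

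**Figure D5:**
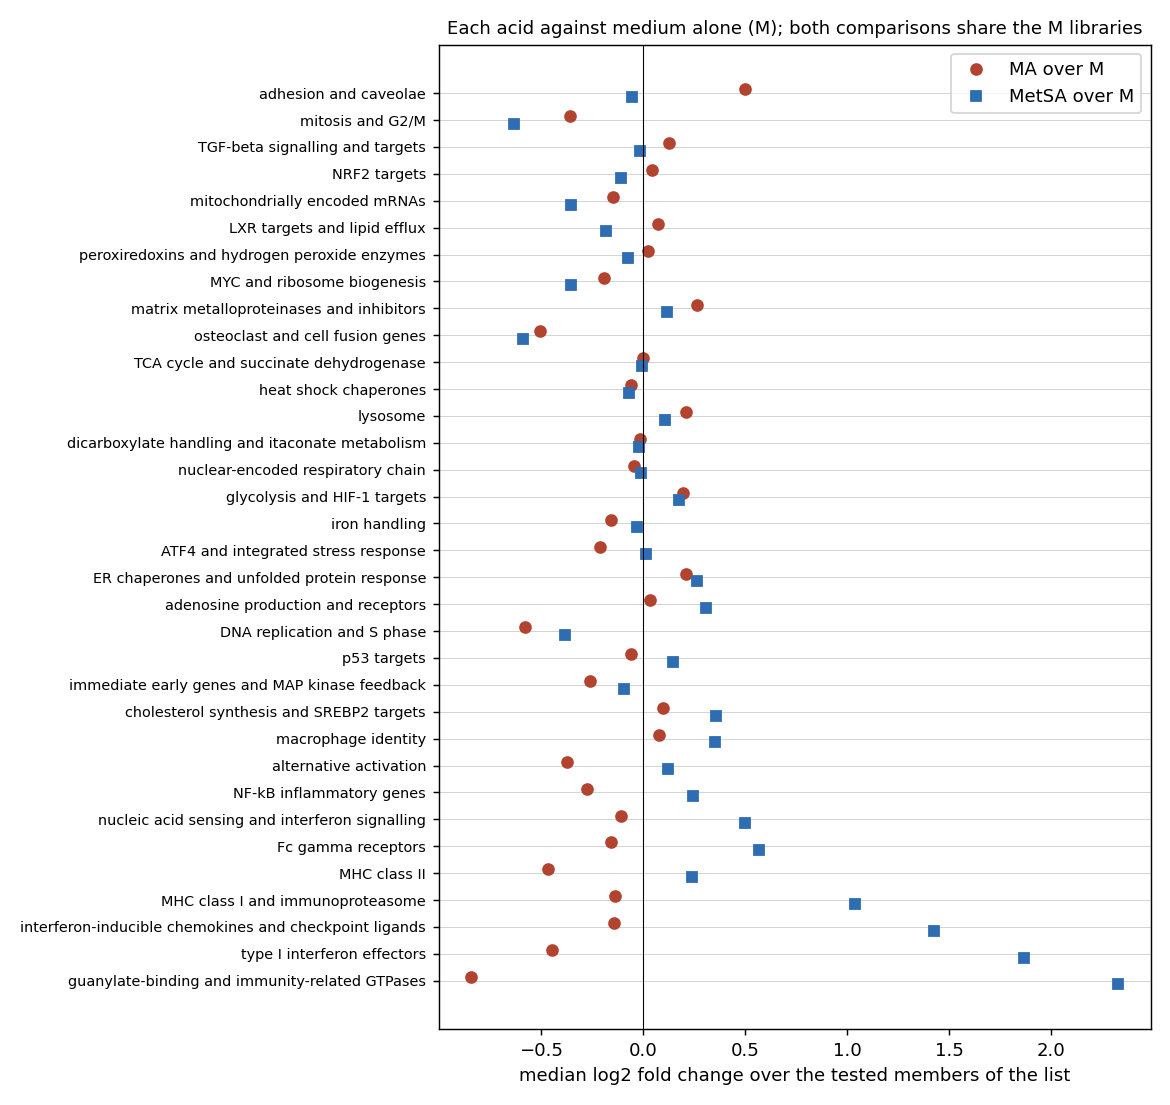
Median log2 fold change over the tested members of each list for MA over M (red circles) and MetSA over M (blue squares). Both comparisons use the same 3 M libraries. The acids lie far apart in the interferon lists, with medians of -0.44 for MA and 1.87 for MetSA in the type I interferon effectors, and close together in the TCA cycle and respiratory chain lists.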

How the data were processed

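Poly(A) RNA of 12 mouse macrophage libraries was sequenced. The authors deposited whole-number counts per gene, not normalised; STAR, featureCounts and mm10 are named in the submitters' processing notes, and no source used here gives versions, annotation or strand. Of counts from 1 to 9, 66.1% were even, against 50.9% of counts of 1000 or more, so both mates of some pairs may have been counted, and a fit on halved counts was tried. Groups came from the sample titles. Genes passing edgeR's filterByExpr (14113 of 32285, 99.9791% of counts) were fitted in 1 model over the 4 groups in R 4.3.3 with edgeR 4.0.16 (TMM, robust quasi-likelihood) and limma 3.58.1, with Benjamini-Hochberg adjustment over all genes tested and a threshold of 0.05. CPM are counts scaled by TMM-normalised library size. Standard errors were taken from the F statistic, and 95% intervals cover counting and replicate error.

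Other fits used DESeq2 1.42.0 size factors or its test, upper-quartile scaling, no filter, a filter of 5 CPM in 3 libraries, only both groups compared, the replicate number as a block, or 1 library left out. The titles number the replicates alike in every group, but no source used here says that same-numbered libraries belong together. In their deviations from the group mean, same-numbered MA and MetSA libraries correlated at 0.0539, 0.169 and 0.0933. Differently numbered ones correlated from -0.113 to 0.0218, and same-numbered libraries correlated above 0 in every pair of groups. The fit reported took no pairing, and these values do not exclude one. Scripts were checked on simulated counts.

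Members and lists were chosen with earlier results of these data known. Named genes are the 12 largest rises, the 12 largest falls and the 12 smallest adjusted p. Each of these sets required 10 CPM or more in the higher group and no overlap, with predicted genes, clone names and pseudogenes skipped. Also named are 6 genes moved in opposite directions against medium, markers at 1 CPM or more, and key genes. Per list, the 4 smallest adjusted p and up to 2 members against its median are named. Other list members were named for their role after their values were seen. Values of some list members and named genes are not reported here; the list counts and medians include them.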

Additional observations from a re-analysis of the deposited data

How the results depend on the processing

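Over the 20 other fits, the 12 largest rises and the 12 largest falls stayed called in the same direction in each (highest adjusted p 0.00966 for the rises and 0.0003917 for the falls). Leaving out 1 library gave 3036 to 3880 called genes, 1261 to 1719 higher and 1750 to 2161 lower, and 805 to 929 with at least a 2-fold difference. With a stricter filter, which tests fewer genes, 513 differed at least 2-fold, where 887 did in the fit reported. The replicate number as a block gave 4215 calls where the fit without the block gave 3720. Among the MA and MetSA libraries each correlated best with the library of its own number. The titles number the replicates alike in every group, and whether same-numbered libraries form pairs is not stated. Of the lists, those that follow changed their count of called members by over 1.5 times in some fit, and the cause was not tested. With no filter on low counts, heat shock chaperones had 5 called members, mitochondrially encoded mRNAs 6, S phase 11, neutrophil markers 4 and stromal markers 6, where the fit reported had 3, 0, 5, 0 and 3. With the replicate block, heat shock chaperones had 6, neutrophil markers 2 and mitochondrially encoded mRNAs 1. The last of these also had 1 under DESeq2, both other scalings, the stricter filter and halved counts. With the stricter filter dendritic cell markers had 1, mast cell and erythroid markers 0 (with no median) and lymphocyte markers 1, as these last had under DESeq2, halved counts and the fit of only both groups, where the fit reported had 3, 2 and 2; the median of alternative activation was 0.002 on the log2 scale. Under upper-quartile scaling 8 glycolysis genes were higher, where 4 were. Leaving out 1 library gave 5 to 9 called members for peroxiredoxins, 3 to 5 for heat shock chaperones, 1 to 5 for TCA cycle genes, 1 to 3 for respiratory chain subunits, 0 to 6 for mitochondrially encoded mRNAs, 3 to 8 for S phase, 5 to 14 for mitosis, 4 to 8 for MYC targets and 1 to 2 for lymphocyte markers. Some counts in 1 direction moved by over 1.5 times too. With no filter adhesion and caveolae had 4 lower, where 2 were. With the stricter filter alternative activation had 3 lower, where 5 were. Leaving out 1 library gave 0 to 2 higher osteoclast genes, 1 to 3 higher immediate early genes, 2 to 7 higher glycolysis genes and 5 to 9 lower members of the endoplasmic reticulum list. The sign of the median log2 fold change turned in some fits for 10 lists, most of them near 0. Over all fits it ran from -0.01 to 0.07 for TCA cycle genes, from -0.04 to 0.24 for matrix metalloproteinases, from -0.14 to 0.16 for osteoclast genes, from -0.04 to 0.05 for the lysosome, from -0.03 to 0.04 for dicarboxylate handling, from -0.05 to 0.07 for heat shock chaperones and from -0.07 to 0.03 for respiratory chain subunits. It ran from -0.90 to 0.00 for alternative activation, from -1.22 to 1.31 for lymphocyte markers and from -0.57 to 0.06 for stromal markers. Precision is limited by 3 libraries a group: the median interval reached 0.23 to either side on the log2 scale, and low genes far more.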

Other observations

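Cells given itaconic acid (IA, 3 libraries at the same dose and time) entered the fit but no comparison above, and their levels for the genes with the largest differences are given here as values, with no test. Among the rises, Pmepa1 was at 1.96, 2.93 and 2.28 CPM in the IA libraries, Nt5e at 2.85, 1.90 and 1.81 CPM, Cspg4 at 5.15, 7.89 and 6.41 CPM, Cav1 at 12.9, 21.7 and 18.1 CPM and F11r at 12.03, 12.8 and 15.1 CPM, all below the lowest MA library. Among the falls, Iigp1 was at 186, 217 and 213 CPM in the IA libraries, Ifit2 at 3225, 3735 and 3703 CPM, Cxcl10 at 112, 199.6 and 156 CPM, Slfn1 at 135, 109 and 119.6 CPM and Ms4a4c at 480.4, 427 and 496 CPM, all above the highest MetSA library. Il10 was at 8.11, 9.56 and 8.69 CPM, Clec4a1 at 349.8, 342 and 365 CPM, Dmpk at 20.3, 16.7 and 15.1 CPM and Prdx5 at 199, 211 and 209.6 CPM in the IA libraries.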
